A study of Homo sapiens with 2 samples.

Results

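Heat shock proteins and J-domain co-chaperones form the main protein folding machinery of human cells. Members were taken by gene symbol, as HSPA, HSPB, HSPD, HSPE, HSPH, HSP90 and DNAJA, DNAJB and DNAJC genes, without antisense and pseudogene rows. This gave 79 of 26447 genes listed, 33 with HSP symbols and 46 with DNAJ symbols. The levels were measured by RNA sequencing of 2 libraries from C4-2B ENZR, a human prostate cancer cell line resistant to the antiandrogen drug enzalutamide. Both libraries came from cells cultured with 20 µM enzalutamide and infected with lentivirus, followed by antibiotic selection. The control virus encoded a non-targeting hairpin RNA, in cells labelled wild type, and the knockdown virus a hairpin against the coding region of NRP2, which encodes the co-receptor neuropilin-2. With 1 library in each group there was no spread between replicates. Every difference below therefore describes these 2 libraries and carries no p-value between conditions.

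HSP70 proteins (HSPA genes) bind exposed stretches of unfolded proteins in a cycle driven by ATP. J-domain proteins bring clients to HSP70 and start its ATP hydrolysis, and HSP110 (HSPH1) and other exchange factors release the nucleotide afterwards. HSP90 takes clients such as steroid hormone receptors and kinases to their mature form, small heat shock proteins (HSPB genes) hold unfolded proteins without ATP, and HSP60 with HSP10 forms the folding chamber of mitochondria. Heat shock factor 1 (HSF1) drives many of the cytosolic genes through repeated GAA units called heat shock elements, whereas chaperones of the endoplasmic reticulum respond to unfolded proteins there through a separate element.

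Promoters of 7 members, chosen with their values known, are shown to set their regulatory letters beside the direction in which each differed. They are not the 7 members with the most reads, and HSP90AA1, which had the most, is not shown. HSPA8, HSPA1B and DNAJB1 were lower in the knockdown library, HSPA5, HSP90B1 and HSPB1 were higher, and HSP90AB1 was nearly level. Each sequence holds the 250 bases before the RefSeq start site in GRCh38.p14, 5′ to 3′ on the strand of the gene. Capitals mark matches to the heat shock element or to the endoplasmic reticulum stress element. The first was searched as 2 units, GAANNTTC or TTCNNGAA, and as 3 units, in which GAA and TTC alternate with NN between neighbours. The second was searched as CCAAT, then 9 bases of any kind, then CCACG, and as the reverse complement of these letters. For DNAJB1 and HSP90AB1, with 3 windows each, the window with the most matches is given.
HSPA8 (chr11:123062137-123062386, minus strand): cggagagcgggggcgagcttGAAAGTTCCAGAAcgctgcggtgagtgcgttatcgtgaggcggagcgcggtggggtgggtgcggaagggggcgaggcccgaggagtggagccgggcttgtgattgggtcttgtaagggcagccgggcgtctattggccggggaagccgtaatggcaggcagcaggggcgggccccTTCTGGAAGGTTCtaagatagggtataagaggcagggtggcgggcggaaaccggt
HSPA1B (chr6:31827488-31827737, plus strand): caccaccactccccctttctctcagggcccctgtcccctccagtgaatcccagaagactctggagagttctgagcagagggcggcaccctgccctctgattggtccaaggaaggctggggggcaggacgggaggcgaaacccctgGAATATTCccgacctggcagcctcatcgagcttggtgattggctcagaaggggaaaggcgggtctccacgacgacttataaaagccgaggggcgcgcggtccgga
DNAJB1 (chr19:14518398-14518647, minus strand): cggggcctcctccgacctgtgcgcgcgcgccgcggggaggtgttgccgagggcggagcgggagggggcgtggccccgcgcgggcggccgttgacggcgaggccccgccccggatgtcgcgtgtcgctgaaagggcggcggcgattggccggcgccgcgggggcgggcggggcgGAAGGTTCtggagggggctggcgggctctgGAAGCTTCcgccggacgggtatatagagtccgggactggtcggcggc
HSP90AB1 (chr6:44247693-44247942, plus strand): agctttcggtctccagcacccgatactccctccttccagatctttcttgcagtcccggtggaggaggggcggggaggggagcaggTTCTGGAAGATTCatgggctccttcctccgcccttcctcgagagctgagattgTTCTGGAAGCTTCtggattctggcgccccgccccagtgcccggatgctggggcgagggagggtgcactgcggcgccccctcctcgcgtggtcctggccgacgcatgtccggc
HSPA5 (chr9:125241344-125241593, minus strand): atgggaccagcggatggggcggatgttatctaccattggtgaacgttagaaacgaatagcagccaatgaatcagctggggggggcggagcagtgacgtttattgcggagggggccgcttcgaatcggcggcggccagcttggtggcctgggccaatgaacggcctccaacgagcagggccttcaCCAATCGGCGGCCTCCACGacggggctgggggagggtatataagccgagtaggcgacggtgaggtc
HSP90B1 (chr12:103930160-103930409, plus strand): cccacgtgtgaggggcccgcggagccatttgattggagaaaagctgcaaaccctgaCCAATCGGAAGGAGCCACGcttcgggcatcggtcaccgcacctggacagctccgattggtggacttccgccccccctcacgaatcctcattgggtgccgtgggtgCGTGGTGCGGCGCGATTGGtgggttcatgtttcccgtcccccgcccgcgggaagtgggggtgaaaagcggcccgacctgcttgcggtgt
HSPB1 (chr7:76302423-76302672, plus strand): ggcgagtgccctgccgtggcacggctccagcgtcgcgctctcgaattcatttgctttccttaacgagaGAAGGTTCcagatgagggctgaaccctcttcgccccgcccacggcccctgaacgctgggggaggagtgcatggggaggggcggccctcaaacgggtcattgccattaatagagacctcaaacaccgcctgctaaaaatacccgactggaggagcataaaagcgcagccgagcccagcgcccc

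HSPA8 and HSP90AB1 each held 2 heat shock element matches of 3 units. HSPA1B and HSPB1 held 1 match of 2 units, and DNAJB1 held 2. HSPA5 held 1 endoplasmic reticulum stress element match and HSP90B1 held 2, and neither held a heat shock element match in these bases. All motifs were searched on both strands in the full windows, which reach 50 bases past the start. A 3-unit match always contains 2-unit matches. Windows were found for 68 of the 79 members. The 3-unit letters lay in windows of 7 members, DNAJA1, DNAJB6, HSP90AA1, HSP90AB1, HSPA6, HSPA8 and HSPD1, and in 0.490% of all 35116 windows in the table. The 2-unit letters lay in windows of 22 members and in 13.5% of all windows. The stress element letters lay in windows of HSPA5 and HSP90B1 and in 0.0769% of all windows. A gene can have several windows, and members had 89. Of these 89, 7 (7.87%) held the 3-unit letters, 23 (25.8%) the 2-unit letters and 2 (2.25%) the stress element letters. These matches describe letters only.

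The 7 members with a 3-unit match went both ways. Their log2 changes had a median of -0.03, with HSPA8 and DNAJA1 lower, HSP90AA1, HSPA6, HSP90AB1 and HSPD1 near 0, and DNAJB6 higher. Of 16 compared members with a 2-unit match, 2 were counted as higher and 4 as lower by the threshold given below. Over all compared genes, 15.1% were counted as higher and 12.1% as lower. The median over the 16 members was -0.00, against 0.03 over all compared genes. Both members with the stress element letters were higher in the knockdown library.

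Reads on genes numbered 21014142 for control cells and 22949961 for knockdown cells. NRP2 itself was at 0.974 CPM (read counts that the authors scaled to library size) in control cells and 0.330 CPM in knockdown cells, from 20 and 7 reads, 2.95-fold lower with a 95% counting interval from 1.2 to 8.26. All 10 luminal prostate markers were at 5.60 CPM or more in both libraries. Summed levels of 5 leukocyte markers were 7.40 CPM in control cells and 10.9 CPM in knockdown cells, those of 6 fibroblast markers 46.7 and 36.8 CPM, and those of 4 endothelial markers 4.09 and 3.87 CPM. Of these lists, 1 leukocyte, 3 fibroblast and 1 endothelial marker reached 1 CPM in both libraries. Their part in the results was not tested. In bulk RNA, fewer cells that express a gene and less of its RNA per cell cannot be told apart.

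Members together took 1.84% of the control reads and 1.73% of the knockdown reads. Their summed level was 18826 CPM in control cells and 18737 CPM in knockdown cells. A gene was compared when its mean over both libraries was at least 1 CPM, and its change is given as log2((knockdown CPM + 1)/(control CPM + 1)), which understates changes of low genes. Of the 79 members, 62 were compared. A gene is counted as higher or lower where this change is at least 0.32 in size. Of the compared members, 11 (17.7%) were counted as higher in the knockdown, where 15.1% of all 13316 compared genes were. Another 5 (8.06%) were counted as lower, against 12.1% of all compared genes. With a threshold of 1.5-fold instead, 1 member was higher and 0 lower, against 5.78% and 3.57% of all compared genes. That member, also among the 11, was the readthrough model DNAJC25-GNG10, with 0 control reads and 74 knockdown reads. It passed the filter only through the knockdown library, and its value is uncertain. The median log2 change was 0.08 over members and 0.03 over all compared genes. These shares lie near the background. With both libraries set to equal totals, 7 members were counted as higher and 8 as lower, where 11.0% and 17.2% of all compared genes were. Under quantile normalization the members were 6 and 7, and the shares of all genes 13.2% and 14.2%.

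**Figure D1:**
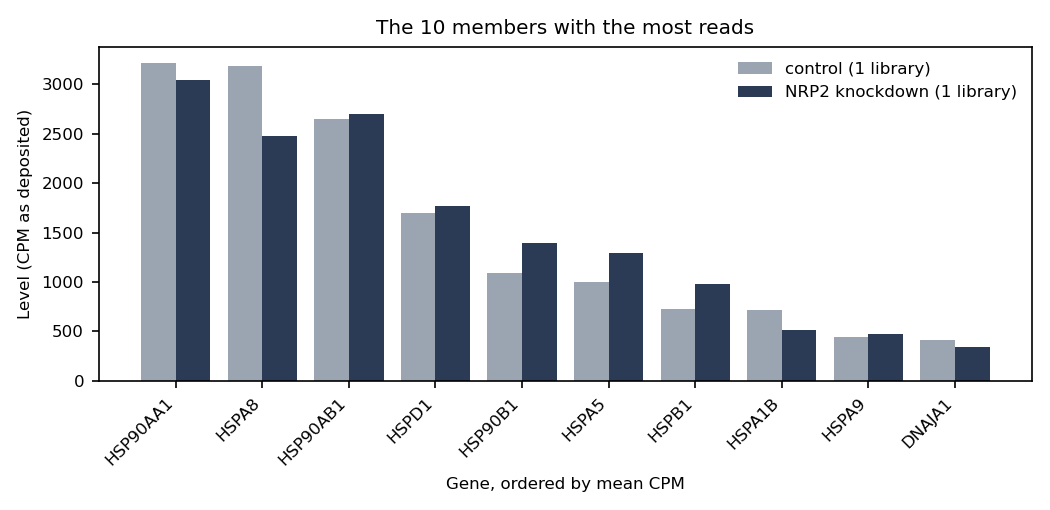
Levels of the 10 members with the most reads, in CPM as deposited on a linear axis from 0, with 1 bar for the control library and 1 for the knockdown library. HSPA8 and HSPA1B show a lower knockdown bar, and HSP90B1, HSPA5 and HSPB1 a higher one.

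The single members that stood lower were mostly cytosolic HSP70 and its direct partners. HSPA8, the constitutive cytosolic HSC70 that also uncoats clathrin vesicles, was at 3189 CPM in control cells and 2475 CPM in knockdown cells. The level was 1.29-fold lower in the knockdown, with a counting interval from 1.27 to 1.30. HSPA8 alone held 16.9% of all member reads in control cells and 13.2% in knockdown cells. The counting intervals here come from whole reads recovered from the tables, and they cover counting error only, because 1 molecule can give several reads and each group has 1 library.

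HSPA1B encodes the stress-inducible HSP70, and its protein is the same as that of its neighbour HSPA1A. HSPA1B was listed at 717 CPM in control cells and 512 CPM in knockdown cells, 1.40-fold lower (1.37 to 1.43). HSPA1A was listed at 0.633 and 0.189 CPM, from 13 and 4 reads. Of all stretches of 50 bases in HSPA1A coding transcripts, 71.3% also occur in HSPA1B, so reads within these stretches cannot be told apart and the split between them is uncertain. Summed over the pair, the level was 718 CPM in control cells and 513 CPM in knockdown cells, 1.40-fold lower (1.37 to 1.44).

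HSPA1L, an HSP70 gene best known from the testis, lies head to head with HSPA1A. Their promoter windows overlap by 241 bases and contain the same 2-unit match. HSPA1L was at 3.36 CPM in control cells and 1.93 CPM in knockdown cells, 1.74-fold lower (1.16 to 2.62), on only 69 and 41 reads. Of its stretches of 50 bases, 2.44% also occur in HSPA1A, so some of these few reads could belong to the HSPA1A and HSPA1B pair, and its value is uncertain. With a log2 change of -0.57, it was the lowest of the compared members.

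HSPH1, the cytosolic HSP110 that serves HSP70 as an exchange factor, was at 296 CPM in control cells and 235 CPM in knockdown cells. It was 1.26-fold lower (1.21 to 1.31). DNAJB1, the heat-inducible HSP40 that works with HSP70 in dissolving protein aggregates, was at 148 CPM in control cells and 117 CPM in knockdown cells, 1.27-fold lower (1.2 to 1.34). The general J-domain partner DNAJA1 was at 412 and 345 CPM, 1.19-fold lower (1.15 to 1.23), and so did not reach the threshold. HSPH1, with a log2 change of -0.33, lay just inside the threshold on the low side, and DNAJC13, a J-domain protein of endosomes, lay just outside at -0.29 (112 and 91.3 CPM).

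Other cytosolic HSP70 relatives did not share this direction. HSPA4, a relative of HSP110 that was named after its value had been seen, was at 282 CPM in control cells and 300 CPM in knockdown cells. Its testis-rich relative HSPA4L was at 50.4 and 55.7 CPM. HSPA6, a strictly heat-inducible HSP70, had 40 reads in each library, at 1.95 CPM in control cells and 1.89 CPM in knockdown cells. HSPA2, the HSP70 needed in spermatogenesis, was at 1.17 CPM in control cells and 1.93 CPM in knockdown cells, and its counting interval, from 0.977 to 2.86 as a ratio, included no difference. HSPA12B, a distant relative expressed in endothelium, was at 1.90 and 2.74 CPM with an interval from 0.944 to 2.22. Both were counted as higher by the size of the change alone. By subfamily, 3 of 13 compared HSPA genes were counted as higher and 3 lower, against 15.1% and 12.1% of all compared genes. Their summed level, in which HSPA8 had the most reads, was 5842 CPM in control cells and 5296 CPM in knockdown cells, 1.10-fold lower (1.09 to 1.11).

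Among the members placed in the endoplasmic reticulum, HSPA5 and HSP90B1 had the most reads, and both differed the other way. HSPA5 (BiP or GRP78), the HSP70 of the endoplasmic reticulum and a sensor partner of the unfolded protein response, was at 996 CPM in control cells and 1294 CPM in knockdown cells. It was 1.30-fold higher (1.28 to 1.32). HSP90B1 (GRP94), the HSP90 of the same compartment that folds integrins and Toll-like receptors, was at 1094 CPM in control cells and 1399 CPM in knockdown cells, 1.28-fold higher (1.26 to 1.30). HSPA13, an HSP70-like protein of microsomes, was at 46.4 and 58.1 CPM and lay just under the threshold. Under quantile normalization the log2 changes of HSPA5 and HSP90B1 kept their sign but were 0.19 and 0.15, below the threshold, and with equal totals they were 0.30 and 0.27, also below it.

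Of the 10 J-domain members placed in the endoplasmic reticulum, 2 were counted as higher and the others lay between log2 changes of -0.20 and 0.29. DNAJB11 (ERdj3), which binds nascent secretory proteins with HSPA5, was at 132 CPM in control cells and 140 CPM in knockdown cells. DNAJB9 (ERdj4), which acts in degradation and restrains the sensor IRE1, was at 18.8 and 20.6 CPM. DNAJC3 (p58IPK), also in the lumen, was at 58.7 and 59.9 CPM, and DNAJC10 (ERdj5), a disulphide reductase, at 92.8 and 104 CPM. DNAJC1, a membrane protein whose J-domain faces the lumen, was at 23.6 and 28.96 CPM, 1.23-fold higher (1.09 to 1.39) and under the threshold. The last 4 of these were chosen after their values were seen. DNAJC16, at 40.8 and 35.5 CPM, was 1.15-fold lower (1.04 to 1.27), and DNAJB12, at 62.3 and 57.7 CPM, also lay below 0. Both were likewise chosen after their values were seen. Of the membrane-bound J-domain proteins, DNAJB14 was at 27.9 and 37.3 CPM, 1.34-fold higher (1.2 to 1.49), and its relative DNAJC18 at 6.67 and 9.34 CPM, on 137 and 198 reads. Of the 13 members placed in the endoplasmic reticulum by textbook location, all were compared, 4 were counted as higher and 0 lower, and 11 lay above 0. Over all compared genes, 15.1% were counted as higher and 12.1% as lower, and 7207 of 13316 lay above 0. Their median log2 change was 0.17, against 0.03 over all compared genes. Their summed level was 2685 CPM in control cells and 3334 CPM in knockdown cells, a ratio of 1.24 (1.23 to 1.26), most of which came from HSPA5 and HSP90B1.

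By contrast, members of the cytosol and nucleus had a summed level of 12789 CPM in control cells and 11950 CPM in knockdown cells, a ratio of 0.934 (0.929 to 0.940). Of the 30 compared, 4 were counted as higher and 5 lower, against 15.1% and 12.1% of all compared genes. The median log2 change of these members was 0.05, so the lower sum came from a few genes with many reads, HSPA8 and HSPA1B above all. Locations were assigned after the values had been seen, and the difference between locations was not tested.

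**Figure D2:**
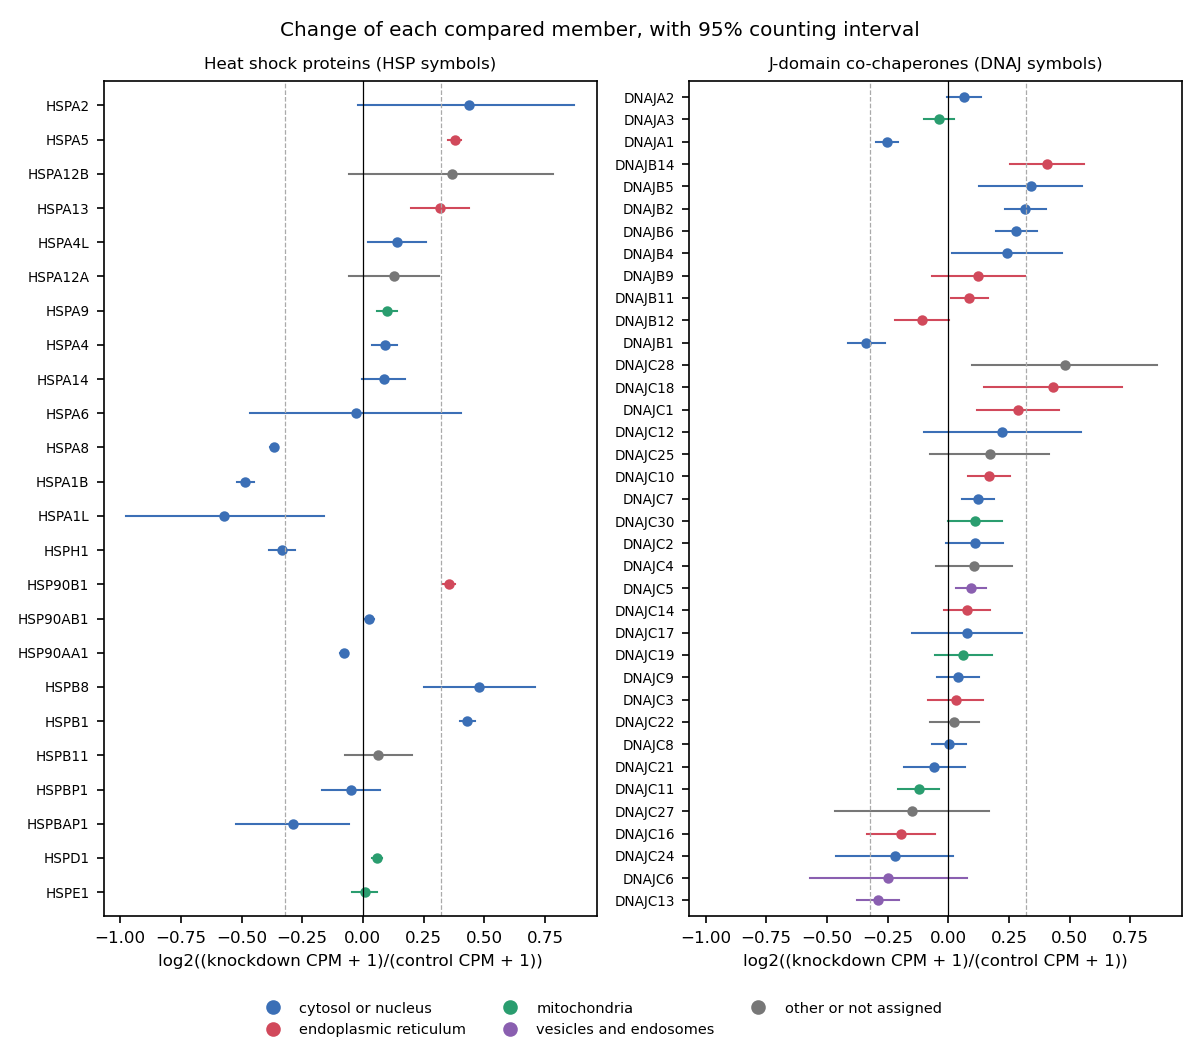
Log2 change, knockdown over control with 1 CPM added to each, for 61 compared members, HSP symbols on the left and DNAJ symbols on the right, coloured by location; DNAJC25-GNG10 is left out. Points are the change, lines the 95% counting interval, and dashed lines the threshold of 0.32; HSPA8, HSPA1B, HSPH1 and DNAJB1 lie on the low side and HSPA5, HSP90B1 and HSPB1 on the high side.

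Cytosolic HSP90 was nearly level. HSP90AA1, the inducible form, was at 3218 CPM in control cells and 3048 CPM in knockdown cells, and HSP90AB1, the constitutive form, at 2652 and 2702 CPM. They had log2 changes of -0.08 and 0.03. The 3 HSP90 members together, without the mitochondrial HSP90 gene TRAP1, were at 6965 CPM in control cells and 7149 CPM in knockdown cells. Their ratio of 1.03 (1.02 to 1.03) turned below 1, to 0.970, with equal library totals and to 0.946 under quantile normalization.

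Of the 5 compared HSPB rows, 2 were counted as higher and 0 as lower, against 15.1% and 12.1% of all compared genes. HSPB1 (HSP27), which binds actin and unfolded proteins and is abundant in many carcinomas, was at 725 CPM in control cells and 978 CPM in knockdown cells. It was 1.35-fold higher (1.32 to 1.38), and under quantile normalization its log2 change of 0.25 was below the threshold. HSPB8, which works with BAG3 in chaperone-assisted autophagy, was at 11.1 CPM in control cells and 15.8 CPM in knockdown cells, 1.43-fold higher (1.2 to 1.70). HSPB11, an intraflagellar transport protein in spite of its symbol, was at 37.6 and 39.3 CPM. The symbol rule also took in HSPBP1, an HSP70 exchange factor, and HSPBAP1, an HSPB1-binding protein, both chosen after their values were seen; HSPBP1 was at 54.4 and 52.5 CPM and HSPBAP1 at 14.2 and 11.5 CPM. The summed HSPB rows were at 844 CPM in control cells and 1097 CPM in knockdown cells, a ratio of 1.30 (1.28 to 1.33). This ratio was 1.23 with equal totals and 1.16 under quantile normalization, so its direction held, and HSPB1 supplied most of the reads.

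The mitochondrial members were nearly level. HSPD1 (HSP60) was at 1702 CPM in control cells and 1772 CPM in knockdown cells, and its partner HSPE1 (HSP10) at 287 and 289 CPM. HSPA9 (mortalin), the HSP70 of the matrix, and its J-domain partner DNAJA3 measured 441 and 473 CPM for the former and 197 and 192 CPM for the latter. HSPA9 was chosen after its value was seen. Of 7 compared mitochondrial members, 0 passed the threshold in either direction, against 15.1% higher and 12.1% lower over all compared genes. The summed ratio of the HSPD and HSPE genes, 1.04 (1.02 to 1.05), turned to 0.979 with equal totals and to 0.896 under quantile normalization.

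**Figure D3:**
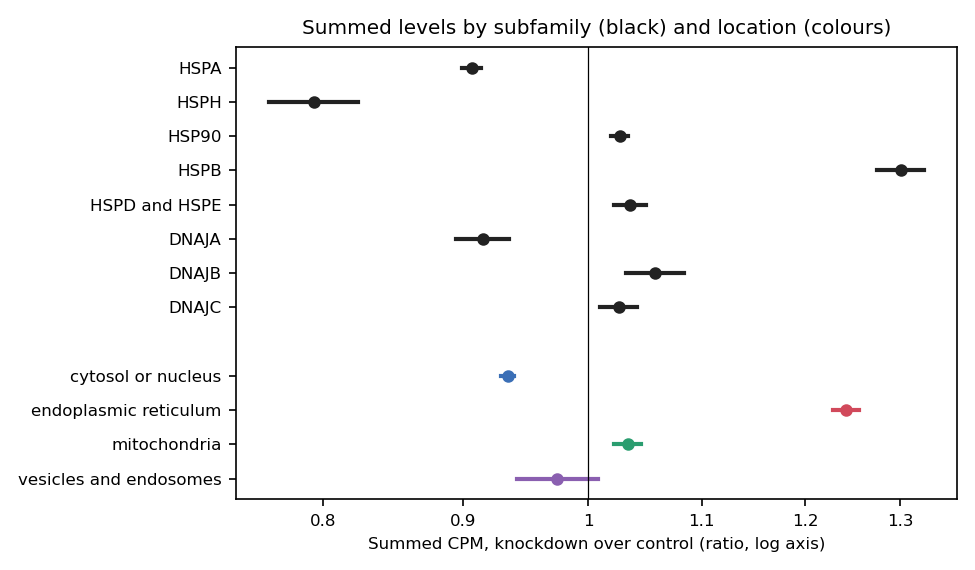
Ratio of summed CPM, knockdown over control, on a log axis, for each subfamily in black and each location in colour, with 95% counting intervals as lines. The HSPH, HSPA and DNAJA sums lie below 1 and the HSPB and endoplasmic reticulum sums near 1.30 and 1.24; the HSP90, HSPD and HSPE, DNAJB, DNAJC and mitochondrial ratios, all just above 1, turn below 1 with equal library totals.

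Outside the endoplasmic reticulum, DNAJB1, DNAJB5, DNAJC28 and the readthrough model DNAJC25-GNG10 were the J-domain members past the threshold. In the same subfamily, DNAJB6, DNAJB5 and DNAJB2 lay on the other side. DNAJB6, a suppressor of polyglutamine aggregation, was at 94.1 CPM in control cells and 114 CPM in knockdown cells, DNAJB5 at 13.9 and 17.8 CPM, and DNAJB2, a J-domain protein with ubiquitin-binding motifs that was chosen after its value had been seen, at 97.4 and 121 CPM. DNAJB5 was just inside the threshold, at 0.34. Of 9 compared DNAJB genes, 2 were counted as higher and 1 lower, against 15.1% and 12.1% of all compared genes. The DNAJB median log2 change was 0.24. The summed DNAJB ratio of 1.06 (1.03 to 1.08) was 0.999 with equal totals.

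Among 26 compared DNAJC genes, 3 were counted as higher and 0 lower, against 15.1% and 12.1% of all compared genes. The DNAJC median log2 change was 0.08. DNAJC5, the cysteine string protein of secretory vesicles, was at 200 CPM in control cells and 214 CPM in knockdown cells. DNAJC7, a partner of both HSP70 and HSP90, was at 165 and 179 CPM. DNAJC28 was at 2.73 and 4.20 CPM, on 56 and 89 reads. Except for 1 readthrough model, the others lay between log2 changes of -0.29 and 0.43. The 3 compared DNAJA genes had a median of -0.04, and 0 passed the threshold.

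The highest member by fold was a readthrough model. DNAJC25-GNG10 had 0 control reads and 74 knockdown reads (3.49 CPM). With the control set at 3 reads the level was 23.9-fold higher, and the counting interval had a lower limit of 19.0-fold. This model passed the filter only through the knockdown library. Its parents were nearly level, DNAJC25 at 10.7 and 12.1 CPM and GNG10 at 52.8 and 53.9 CPM, and the sum of all 3 rows was 63.4 CPM in control cells and 69.5 CPM in knockdown cells. Reads of the model and its parents cannot be told apart, so its value is uncertain. Another readthrough model, HSPE1-MOB4, went the other way, with 12 control reads and 0 knockdown reads.

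**Figure D4:**
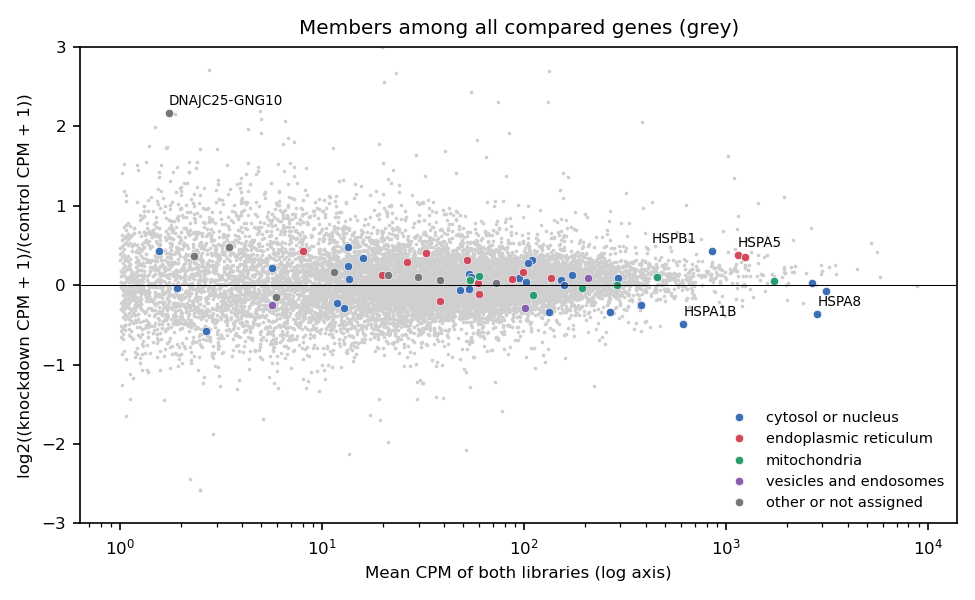
Log2 change, knockdown over control with 1 CPM added, against mean CPM on a log axis for all 13316 compared genes in grey and the 62 members coloured by location; 6 genes lie outside the plotted range. DNAJC25-GNG10 is the highest member, and HSPA8, HSPA1B, HSPA5 and HSPB1 lie apart from 0 among the genes with many reads.

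Of the 17 members that were not compared, 5 had 0 reads in both libraries: DNAJB3, DNAJB8, DNAJC5B, HSPB3 and HSPB2-C11orf52. A count of 0 allows up to 0.146 CPM in control cells and 0.141 CPM in knockdown cells. The other 12 had at most 13 reads in a library. These were HSPA1A, HSPA7, HSPB2, HSPB6, HSPB7, HSPB9, HSPE1-MOB4, DNAJA4, DNAJB7, DNAJB13, DNAJC5G and DNAJC15. Several of them are known from muscle, heart or testis. HSPA1A lay just under the filter with a mean of 0.411 CPM, and HSPA2 just over it with 1.55 CPM.

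Known targets of HSF1 went both ways. Among the members on a list of 24 such targets, 14 were compared, 2 were counted as higher (HSPB1 and HSPB8) and 4 lower (HSPA1B, HSPA8, HSPH1 and DNAJB1), with a median log2 change of -0.01. These are 14.3% and 28.6%, against 15.1% and 12.1% of all compared genes. Over the 23 compared targets, 4 were higher and 5 lower. The list's non-members included BAG3, at 78.4 CPM in control cells and 101 CPM in knockdown cells, CHORDC1, at 176 and 139 CPM, and the collagen chaperone SERPINH1, at 3.85 and 6.23 CPM. The transcription factor gene HSF1 was at 138 and 139 CPM and HSF2 at 16.0 and 17.9 CPM. These are RNA levels, and the activity of the factors was not measured. Of 17 compared HSF genes and regulators, 1 was counted as higher and 2 lower, against 15.1% and 12.1% of all compared genes. HSF4, a factor best known from the lens, was at 14.5 CPM in control cells and 8.40 CPM in knockdown cells, 1.73-fold lower (1.43 to 2.09). HDAC6, a deacetylase of HSP90, was at 46.1 and 36.6 CPM, and PLK1, a mitotic kinase that phosphorylates HSF1, at 185 and 148 CPM.

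Of 16 compared exchange factors and other partners of HSP70, 13 lay above 0, where 7207 of all 13316 compared genes did. Of them, 4 were counted as higher and 0 lower, against 15.1% and 12.1% of all compared genes, and the median log2 change was 0.16, against 0.03. SGTB, a small co-chaperone with tetratricopeptide repeats, was at 9.30 CPM in control cells and 16.3 CPM in knockdown cells, 1.75-fold higher (1.46 to 2.1). STUB1, the ubiquitin ligase CHIP that marks HSP70 clients, was at 219 and 279 CPM, and GRPEL2, an exchange factor of mitochondria, at 57.3 and 72.2 CPM.

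HSP90 co-chaperones were balanced around 0. Of 24 compared, 12 lay above 0 and 12 below. Here 2 were counted as higher and 2 lower, against 15.1% and 12.1% of all compared genes. FKBP5, an immunophilin of steroid receptor complexes, was at 89.6 CPM in control cells and 115 CPM in knockdown cells. TRAP1, listed here though it is the mitochondrial HSP90 and not a co-chaperone, was at 391 and 497 CPM, 1.27-fold higher (1.23 to 1.31). Its symbol left it out of the members. On the low side were AHSA2, at 15.9 and 11.3 CPM, and CHORDC1. The TRiC chaperonin and prefoldin fold actin and tubulin. Of their 18 compared genes, 1 was counted as higher and 0 lower, against 15.1% and 12.1% of all compared genes. That gene, CCT6B, was low in both libraries, at 1.80 and 2.78 CPM. PFDN4, a prefoldin subunit, was at 27.9 and 22.4 CPM, and the TRiC subunits CCT8 and CCT4 measured 320 and 370 CPM for the former and 253 and 280 CPM for the latter.

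An exact conditional binomial test on the reads, adjusted by the Benjamini-Hochberg method over all compared genes, called 22 members higher and 11 lower, where it called 30.2% and 22.0% of all compared genes. It compares these 2 libraries and not the conditions.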

How the data were processed

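Total RNA of 2 samples, 1 per group, was sequenced. The deposited tables give each gene a signal, which per the labels is its read count after TMM scaling to library size by the authors (CPM). Per the submitters' processing notes, bcl2fastq 2.17, Bowtie2 2.1.0, RSEM 1.2.15 and edgeR were used with hg19; which tool did what, the annotation and strandedness were not given in the sources used here. All deposited values (100%) were whole multiples of the value of 1 read, 0.0487 and 0.0472 CPM, within 0.01 read, so whole reads were recovered. The columns sum to 1024943 and 1084413. Another 28 symbols turned into dates, with 0.181% and 0.184% of reads, were left out. Ratios carry exact conditional binomial (Clopper-Pearson) 95% intervals. The members, lists and rules were chosen with earlier results of these data known. Named members were those past the threshold, the 2 with the most reads per subfamily, the HSF1 targets and all members not compared. HSPA13 and DNAJC13 were named by their values, as the nearest outside the threshold on each side. DNAJC25 was named as a parent of a readthrough model, and HSPB11 from a list. Others are marked as chosen after their values were seen. In each list the 4 genes with the largest changes were named, leaving out any gene that is not reported here. Promoters are from RefSeq (GRCh38.p14, another build than that of the tables), matched by symbol, and shared bases from GENCODE transcripts. CPM is not scaled by length, so levels are not compared between genes. Alternatives were other pseudocounts, filters and scalings. The read test and the sums by location were chosen after seeing the data. The read test was tried on simulated counts that held counting error only, as the test assumes. That trial therefore cannot show how the test does where cultures differ. Python 3.11.15, SciPy 1.17.1 and pandas 2.3.3 were used.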

Additional observations from a re-analysis of the deposited data

How the results depend on the processing

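Equal library totals moved the median log2 change of all compared genes by -0.08, median centring by -0.03 and quantile normalization by -0.04. Under these 3 scalings the 16 members past the threshold kept their sign in 48 of 48 values, and 12 stayed past it with equal totals, 15 with median centring and 11 under quantile normalization. Pseudocounts and filters cannot turn a sign; 10 of the 16 stayed past the threshold with a pseudocount of 5 CPM, and 11 of the 16 were compared at a mean of at least 5 CPM. HSPA5, HSP90B1, HSPA12B and DNAJB5 lost the threshold with equal totals and under quantile normalization, DNAJB5 also with median centring, and HSPB1 under quantile normalization. Members counted as higher numbered 11 as reported, where 15.1% of all compared genes were. They were 6 (10.1% of all genes) with a pseudocount of 5 CPM and 7 (12.8%) with a mean of at least 5 CPM. With equal totals they were 7 (11.0%), and under quantile normalization 6 (13.2%). Members counted as lower numbered 5 as reported, where 12.1% of all compared genes were. They were 8 with no filter (10.9% of all genes) and 8 with equal totals (17.2%). The read test, which uses no fold threshold, called 22 members higher and 11 lower, against 30.2% and 22.0% of all compared genes. At 1.5-fold, a pseudocount of 0.25 CPM gave 2 higher and 1 lower, no filter 1 lower, a mean of at least 5 CPM 0 higher, equal totals 1 lower, median centring 1 lower and quantile normalization 2 lower. At 1.5-fold, the shares of all genes, 5.78% higher and 3.57% lower as reported, were not computed for these settings. Without readthrough models and the HSPA1A and HSPA1B pair, 10 members were counted as higher and 4 lower, against 15.1% and 12.1%. The summed ratios with equal totals were 0.857 for HSPA, 0.750 for HSPH, 0.970 for HSP90, 1.23 for HSPB, 0.979 for HSPD and HSPE, 0.865 for DNAJA, 0.999 for DNAJB and 0.969 for DNAJC. Under quantile normalization they were 0.807, 0.751, 0.946, 1.16, 0.896, 0.866, 1.02 and 0.993 in the same order. Median centring gave 0.890 for HSPA, 1.007 for HSP90, 1.02 for HSPD and HSPE and 1.006 for DNAJC. The ratio of mitochondrial members was 0.977 with equal totals and 0.921 under quantile normalization, and that of endoplasmic reticulum members 1.17 and 1.11. The cause of these shifts beyond the scaling itself was not tested. No paired analysis was possible because each group holds 1 library. Depth limits the members with few reads: among those counted as higher, HSPA2 and HSPA12B had counting intervals that included no difference.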

Other observations

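HSP90 client genes were described from a fixed list of 28, of which 26 were compared. Paired levels give the control library first and the knockdown library after it. Of the 26, 4 were counted as higher and 1 lower, against 15.1% and 12.1% of all compared genes. The receptor tyrosine kinase genes EGFR, at 31.3 and 97.8 CPM, IGF1R, at 5.11 and 7.40 CPM, and MET, at 21.6 and 28.3 CPM, were higher, as was the mitotic kinase gene CDK1, at 350 and 463 CPM. These are RNA levels of clients, whose proteins were not measured.

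Relatives that carry other names were also listed. SEC63, a J-domain protein of the translocon, was at 101 and 108 CPM, the clathrin uncoating factor GAK at 90.3 and 89.3 CPM, and the iron-sulphur cluster co-chaperone HSCB at 10.5 and 11.6 CPM. The small heat shock protein gene CRYAB had 76 and 81 reads, at 3.70 and 3.82 CPM.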
